A study of Mus musculus with 6 samples.

Results

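Blood vascular endothelial cells were picked from the single-cell libraries of mouse dorsal skin by a fixed rule on UMIs, the tags that each mark a captured RNA molecule. Of 55201 deposited cell barcodes, 50850 passed the limits on depth (fewer than 100000 UMIs and 6500 genes) and on mitochondrial UMIs (below 10%). A kept cell was a member when Pecam1 and Cdh5 were both detected, when its lymphatic genes Prox1, Mmrn1 and Lyve1 summed to under 2 UMIs, and when the leukocyte gene Ptprc had no UMI. Krt5 plus Krt14 and Col1a2 plus Col3a1 each also had to lie under 10 UMIs per 10000. In all, 484 of the 50850 kept cells met these limits. These genes chose the members, and their levels are not used as results.

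The 6 libraries came from female C57BL/6J mice aged 8 to 10 weeks, in 3 groups of 2 libraries. The Sham group, called normal and untreated in the labels, had no cream. The IMQ group had 62.5 mg of 5% imiquimod cream on the shaved back on each of 4 days, and skin was taken a day after the last dose. The IMQ+SHP099 group had the same cream plus SHP099, which locks the phosphatase SHP2 in its inactive form, given by mouth once a day on 4 days at 10 mg/kg. Imiquimod is an agonist of the receptor Tlr7 and gives a skin inflammation like psoriasis. All mice were wild-type, each library pools the skin of several mice, and no group had SHP099 without cream, so the effect of the inhibitor on normal vessels was not measured. Replicate libraries of a group may share mice or days, which the labels do not give, and the p-values measure the spread between these libraries.

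Blood endothelial cells line arteries, capillaries and veins. Arterial cells carry Notch ligands and connexins, capillary cells take up fatty acids through Cd36, Fabp4 and Gpihbp1, and venules are where leukocytes roll on selectins, stick to Icam1 and Vcam1 and leave the blood. In inflamed skin these cells are known for making adhesion molecules and chemokines and for forming new vessels. The Notch, NF-kB and interferon pathways set much of this programme, and SHP2 links receptor signals to the ERK pathway.

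Sham replicates 1 and 2 gave 24 and 302 members, the IMQ replicates 53 and 57, and the IMQ+SHP099 replicates 14 and 34. The Sham members summed to 145905 and 2102810 UMIs, the IMQ members to 870398 and 922937, and the IMQ+SHP099 members to 122566 and 240458. A single UMI was thus worth 6.85 CPM (UMIs per 1000000) in Sham replicate 1 and 8.16 CPM in IMQ+SHP099 replicate 1, but 0.476 CPM in Sham replicate 2. The median IMQ member held 14963 and 14002 UMIs, against 5178 and 5583 for Sham members and 5124 and 6822 for IMQ+SHP099 members. Levels below are CPM of the summed members of a library, and fewer cells of a vessel type and less RNA per cell cannot be told apart in them. No member barcode was shared between libraries. Of the members, 11 lay at the limit of 2 UMIs of Pecam1 plus Cdh5, 381 had 10 or more, and 37 cells lay just outside with only 1 of the 2 genes detected.

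The endothelial part of the label was borne out by genes the rule did not use. Egfl7, a protein secreted by endothelium, ranged from 1163 to 1572 CPM over the 6 libraries, against 0.595 to 2.24 CPM in the 14887 fibroblasts of the same libraries. The transcription factor Sox17 ranged from 188 to 329 CPM, with 0 to 0.132 CPM in fibroblasts. All 27 genes of a pan-endothelial list were detected, and their summed level ran from 11936 to 16068 CPM against 762 to 1576 CPM in fibroblasts. The fibroblasts were picked to have no Pecam1 or Cdh5, so these values do not set blood apart from lymphatic endothelium. Against the lymphatic cells compared below, 16 of the 27 genes were called higher and 4 lower. Of all genes, 15.4% were called higher and 14.8% lower there. Egfl7 was not called. Genes of other cell types were present in some libraries. The 15 keratinocyte genes summed to 10514 and 2822 CPM in Sham replicates 1 and 2, but to 208 and 129 CPM in IMQ and 791 and 166 CPM in IMQ+SHP099. The 12 leukocyte genes summed to 13.7 and 38.5 CPM in Sham, 123 and 108 CPM in IMQ and 326 and 121 CPM in IMQ+SHP099, and 1 of the 12 was at 0 in every library. Fibroblast genes stayed between 60.9 and 518 CPM, mural genes (pericytes and smooth muscle) between 24.5 and 1302 CPM, and lymphatic genes between 74.9 and 449 CPM. Erythrocyte genes stood out in Sham replicate 2, at 6457 CPM against at most 49.9 CPM in the other 5 libraries.

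The share of blood endothelial cells overlapped between Sham and IMQ and was lower in both IMQ+SHP099 libraries than in both IMQ libraries. Members made up 0.280% (95% exact interval 0.179 to 0.416) and 3.67% of the kept cells in Sham, 0.691% and 0.554% of those from IMQ skin, and 0.161% and 0.461% of those from IMQ+SHP099 skin. By this share of all kept cells, Sham replicate 2 was far above, and Sham replicate 1 below, both IMQ libraries. The mean was 1.97% ± 2.40 (SD, n = 2) in Sham and 0.622% ± 0.0969 in IMQ (exact two-sided permutation test, p = 1). The IMQ+SHP099 libraries, at 0.311% ± 0.212 (SD, n = 2), lay below both IMQ libraries, with p = 0.333 by the same exact test, which is the smallest p that 2 libraries against 2 can give. Enzymatic release of cells from skin can change such shares, and its part was not tested.

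Unsupervised clustering without the rule genes or the keratinocyte, fibroblast and leukocyte lists divided the members into 10 clusters, which are a description with no test. Cluster 1 (82 cells) raised 14 of 16 arterial markers and is called artery-like. Gja5, the connexin of arterial gap junctions, reached 1021 CPM in it against 25.2 CPM in the other members. Cluster 3 (65 cells) raised 7 of 12 venous markers and is called vein-like, with Ackr1, the chemokine-binding receptor of venules, at 1180 CPM against 23.2 CPM. Clusters 4 and 8 (102 and 85 cells) raised 10 and 7 of 12 capillary markers and are called capillary-like. Every cell of these last clusters came from Sham replicate 2. Some capillary markers were also seen elsewhere, with Cd36 in 58.5% and 52.6% and Cd300lg in 69.8% and 42.1% of the IMQ members. Aqp7 and Slc28a2 were detected only in Sham replicate 2. Clustering was done without integration of the libraries, and the part of the library in such clusters was not tested. Cluster 9 (57 cells) had the mitotic genes Ube2c and Birc5 among its leading genes and stayed unnamed, as did cluster 6 (29 cells). Ube2c was detected in 38.6% and Birc5 in 45.6% of the cells of cluster 9, and Dusp2, also a leading gene, in 80.7%. Cluster 2 (29 cells) raised 12 arterial markers.

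The makeup of the Sham libraries differed. Artery-like cells were 75% of the members of Sham replicate 1 (18 of 24) but 3.31% of those of Sham replicate 2 (10 of 302). Cluster 2, which also raised arterial markers and is not counted among them, held a further 23 members of Sham replicate 2 (7.62%) and 1 of Sham replicate 1. The IMQ libraries lay between these with 17.0% and 33.3%, and the IMQ+SHP099 libraries had 57.1% and 52.9%. Vein-like cells made up 4.17% and 11.6% of the Sham members and 24.5% and 21.1% of the IMQ members. The IMQ+SHP099 members had 0 of 14 cells (exact upper limit 23.2%) and 11.8%. Cluster 9 held 0 of 24 and 3 of 302 Sham members, 26 of 53 and 17 of 57 IMQ members, and 5 of 14 and 6 of 34 IMQ+SHP099 members. A level summed over all members moves with this makeup, and its part in the sums was not tested apart from the within-cluster values below.

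**Figure D1:**
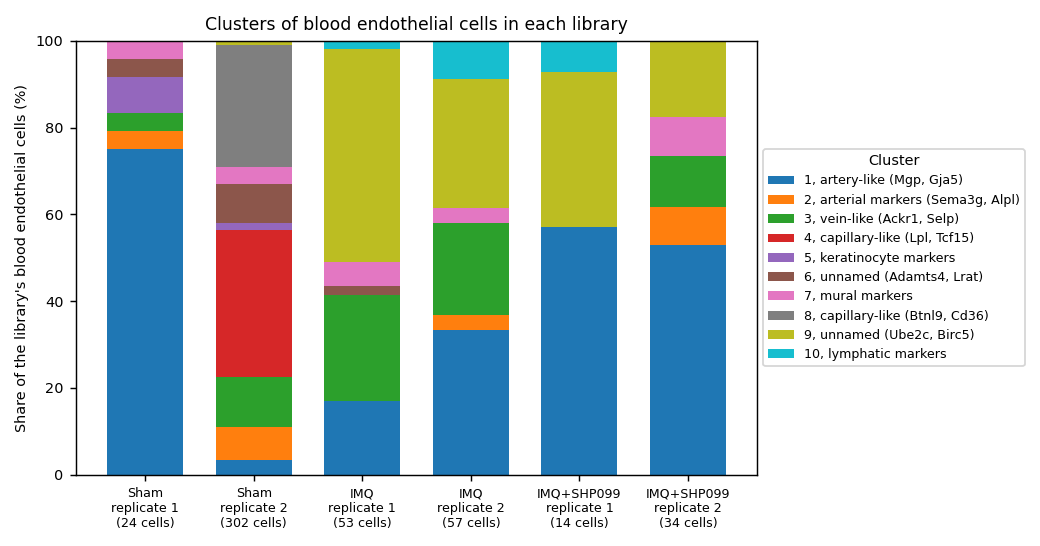
Share of the members of each library (vertical axis, percent) that fell in each of 10 clusters, stacked to the whole, with the number of members under each bar. Sham replicate 1 is mostly artery-like (75%) and Sham replicate 2 mostly capillary-like. Cluster 9 takes 49.1% and 29.8% of the IMQ libraries. Mitotic genes are among its leading genes, and Birc5 was detected in 45.6% of the cells of that cluster.

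Small clusters carried markers of other cells. Cluster 5 (2 cells of Sham replicate 1 and 5 of Sham replicate 2) raised 13 of 15 keratinocyte genes and had 4.45 times the median UMIs of its own libraries' members. Cluster 7 (21 cells) raised all 10 mural genes. Cluster 10 (7 cells, 6 of them from IMQ) raised 5 of 8 lymphatic genes at 0.161 times the median UMIs. Results are therefore also given without these 35 cells where they change.

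Imiquimod was first compared with no treatment. In edgeR's quasi-likelihood test with Benjamini-Hochberg adjustment, 20 of 7434 genes passed an adjusted p of 0.05 between IMQ and Sham (0.269%), 11 higher (0.148%) and 9 lower (0.121%), and 1079 genes (14.5%) had an unadjusted p under 0.05. The called genes fell into a few kinds. The rises were in Csf3, Tmem252, Ctla2a, Sema3a, Ada, Cd14, AA467197, Nts, Lcn2, S100a8 and S100a9. The falls were in Pltp, Gata3, Mt4, Calm4 and Ly6d and in Krt10, Krt1, Dsp and Perp of the keratinocyte list. Without clusters 5, 7 and 10 no gene passed, with 1057 genes at an unadjusted p under 0.05 and a lowest adjusted p of 0.0727 among those of the 20 still tested. DESeq2 on all members called 61 genes, 19 of them among the 20.

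Csf3, the granulocyte growth factor G-CSF (GRCm38 chr11:98701263-98703629, plus strand), stood at 6.85 and 26.2 CPM in Sham. It stood at 178 and 168 CPM in IMQ and 188 and 108 CPM in IMQ+SHP099. Every imiquimod library lay well above both Sham libraries, and all kept cells of a library together reached at most 17.5 CPM. The rise between IMQ and Sham was 3.16 ± 0.48 (log2 fold change ± SE, edgeR adjusted p = 0.046), and 2.41% of its UMIs lay in clusters 5, 7 and 10. Csf3 in Sham replicate 1 rests on 1 UMI.

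Tmem252, a membrane protein on the venous marker list (chr19:24674008-24682233, plus strand), was also called. Its levels were 96.0 and 126 CPM in Sham, 1109 and 724 CPM in IMQ, and 408 and 487 CPM in IMQ+SHP099. Fibroblasts of these libraries held at most 0.239 CPM and lymphatic endothelial cells at most 33.5 CPM. The change was 3.17 ± 0.42 on the log2 scale (edgeR adjusted p = 0.046). Within artery-like cluster 1 alone it stood at 11.96 and 0 CPM in Sham against 884 and 199 CPM in IMQ and 522 and 337 CPM in IMQ+SHP099 (edgeR adjusted p = 0.0497 for IMQ against Sham).

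Ctla2a, a protease inhibitor made by endothelium (chr13:60934155-60936625, minus strand), rose from 391 and 762 CPM in Sham to 5597 and 3462 CPM in IMQ. In IMQ+SHP099 it stood at 2391 and 1767 CPM, between the other groups. The change in IMQ was 3.13 ± 0.48 (log2 ± SE, edgeR adjusted p = 0.046). Cluster 1 alone gave 47.8 and 46.3 CPM in Sham and 1632 and 632 CPM in IMQ (edgeR adjusted p = 0.0497). Ctla2a has a close relative, Ctla2b, and reads that fit both may have been dropped or split in counting.

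Ada, the enzyme adenosine deaminase, had 0 and 3.33 CPM in Sham, 64.3 and 79.1 CPM in IMQ, and 16.3 and 0 CPM in IMQ+SHP099. Cd14, a co-receptor for bacterial lipopolysaccharide, had 0 and 0.951 CPM in Sham, 54.0 and 46.6 CPM in IMQ, and 0 and 8.32 CPM in IMQ+SHP099. Sema3a, a secreted guidance molecule that acts through neuropilin, had 0 and 0.951 CPM in Sham and 28.7 and 29.2 CPM in IMQ. These genes were low even where they were highest, and in Sham they rest on 0 to 7 UMIs a library.

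Lcn2, the iron-binding antimicrobial protein lipocalin 2, stood at 0 and 0.951 CPM in Sham, 90.8 and 153 CPM in IMQ and 318 and 74.9 CPM in IMQ+SHP099. The calprotectin genes rose alongside it. S100a8 had 0 and 0.951 CPM in Sham and 54.0 and 37.9 CPM in IMQ, and S100a9, at 0 UMIs in Sham, was at least 36.4-fold higher in IMQ against a floor of 3 UMIs over the group. The same genes were far more abundant elsewhere in treated skin. Lcn2 was at 977 and 2591 CPM in IMQ fibroblasts and 4204 and 4848 CPM in IMQ lymphatic endothelial cells, and S100a8 was at 5304 and 8093 CPM over all kept IMQ cells. S100a8 in IMQ fibroblasts, at 55.1 and 85.7 CPM, was close to its level in the blood endothelial cells. The part of free RNA in these rises was not tested. Nts, at 0 UMIs in Sham and at least 31.3-fold higher in IMQ against the same floor, had 26.7% of its UMIs in clusters 5, 7 and 10, the last of which raised lymphatic genes.

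The falls had other sources to set beside them. Krt10, a keratin of differentiating epidermis, stood at 2419 and 806 CPM in Sham and at most 24.5 CPM in the 4 imiquimod libraries, and 94.99% of its UMIs came from clusters 5, 7 and 10. Mt4, a metallothionein of stratified epithelium, had 96.8% of its UMIs there. Calm4 and Ly6d were leading genes of keratinocyte-marked cluster 5, at 2206 and 2304 CPM against 5.42 and 6.60 CPM in the other members. Calm4, Ly6d, Mt4 and Gata3 had no test result without clusters 5, 7 and 10. Pltp, the phospholipid transfer protein that exchanges lipids between lipoproteins (chr2:164839518-164857711, minus strand), had few UMIs there. It fell from 137 and 240 CPM in Sham to 27.6 and 19.5 CPM in IMQ, and it stood at 16.3 and 49.9 CPM in IMQ+SHP099. The change was -2.89 ± 0.45 (log2 ± SE, edgeR adjusted p = 0.049), with 7.93% of its UMIs in clusters 5, 7 and 10. Over both imiquimod groups against Sham, which share their libraries with the contrast above, 18 genes were called (0.242%), 5 higher (0.0673%) and 13 lower (0.175%). Apoe, the lipoprotein ligand, joined Pltp there, at 322 and 937 CPM in Sham and 86.7 to 106 CPM in the 4 imiquimod libraries (log2 -2.63 ± 0.40, edgeR adjusted p = 0.043). Without clusters 5, 7 and 10 none of the 18 passed in edgeR, with 1070 genes at an unadjusted p under 0.05, and Apoe had an adjusted p of 0.159.

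**Figure D2:**
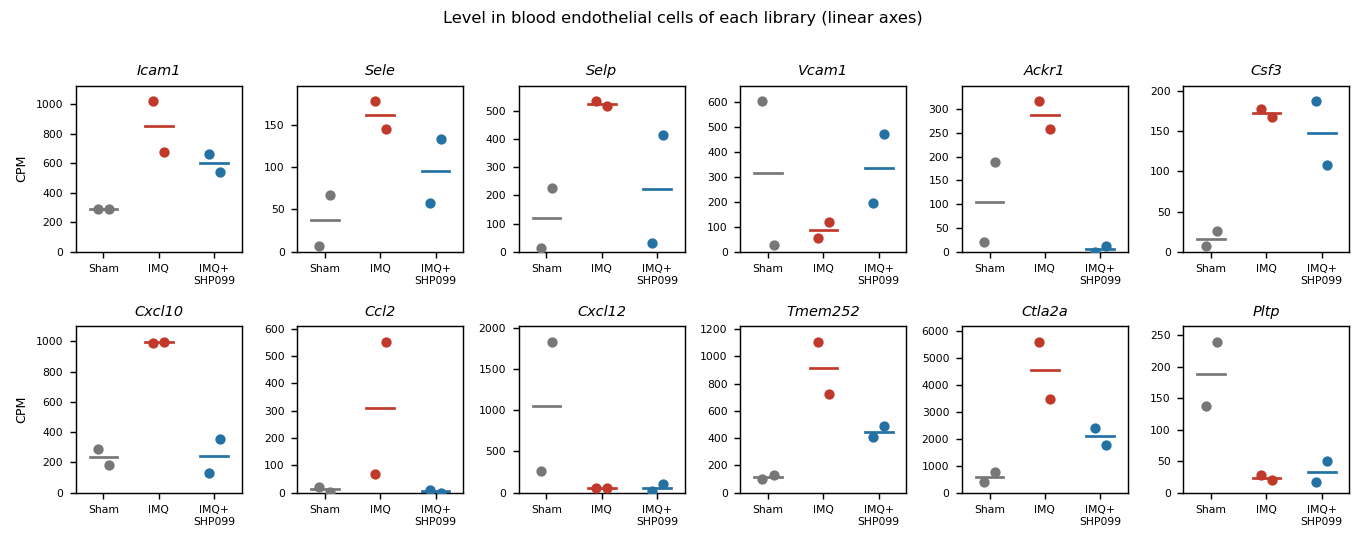
CPM (linear vertical axes) of 12 genes in the summed members of each library. Points are libraries, lines are group means. Csf3, Tmem252 and Ctla2a lie higher in all 4 imiquimod libraries than in Sham, Pltp lies lower, and Ackr1 and Cxcl10 lie lower in IMQ+SHP099 than in IMQ.

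Leukocyte adhesion genes were of direct interest, and none of the 13 tested passed the adjusted threshold. Icam1, the ligand of leukocyte integrins (chr9:21015985-21028817, plus strand), came nearest, with 288 CPM in each Sham library, 1021 and 675 CPM in IMQ and 661 and 536 CPM in IMQ+SHP099. All imiquimod libraries exceeded both Sham libraries, with a log2 difference of 1.71 ± 0.40 between IMQ and Sham (edgeR adjusted p = 0.13). Within the artery-like cells of cluster 1 there was no such rise and the groups overlapped. Icam1 had 299 and 1019 CPM in Sham there, 262 and 532 CPM in IMQ and 370 and 249 CPM in IMQ+SHP099 (log2 -0.77, edgeR adjusted p = 0.69). Sele, the selectin made by activated venules, had 6.85 and 67.0 CPM in Sham, 178 and 145 CPM in IMQ and 57.1 and 133 CPM in IMQ+SHP099. Selp, the stored selectin, had 13.7 and 225 CPM in Sham and 535 and 516 CPM in IMQ, while its IMQ+SHP099 libraries, at 32.6 and 416 CPM, were far apart. Vcam1 was highest in Sham replicate 1, at 603 CPM, and lowest in Sham replicate 2, at 29.0 CPM, so its groups overlapped. The adjusted p for IMQ against Sham was 0.23 for Sele, 0.35 for Selp and 0.48 for Vcam1 (edgeR). Selp and Sele are also vein-like cluster markers, and the share of that cluster moved with them.

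Among 15 chemokine and cytokine genes tested, Csf3 was called, and 5 had an unadjusted p under 0.05 upward and 4 downward (6.55% and 7.96% of all genes). Cxcl10, the interferon-induced ligand of Cxcr3, had 288 and 184 CPM in Sham, 993 and 999 CPM in IMQ and 131 and 353 CPM in IMQ+SHP099. Ccl2, which draws monocytes, had 20.6 and 3.80 CPM in Sham, 66.6 and 554 CPM in IMQ and 8.16 and 0 CPM in IMQ+SHP099, so the IMQ libraries were themselves unlike. Cxcl12, a stromal homing chemokine (chr6:117168535-117181367, plus strand), had 260 and 1834 CPM in Sham, 58.6 and 60.7 CPM in IMQ and 16.3 and 99.8 CPM in IMQ+SHP099. Every imiquimod library was below both Sham libraries. Cxcl12 is also among the leading genes of capillary-like cluster 8, at 3001 CPM against 545 CPM in the other members, and all cells of that cluster came from Sham replicate 2. The edgeR adjusted p for IMQ against Sham was 0.13 for Cxcl10, 0.10 for Ccl2 and 0.11 for Cxcl12.

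Interferon-stimulated and antigen presentation genes had more small p-values downward than upward, with no call. Of 22 interferon-stimulated genes tested, none was called, none had an unadjusted p under 0.05 upward and 8 had one downward, with a median log2 difference of -0.80 against -0.02 over all genes. Among them were Ifi47, Igtp, Gbp2, Gbp3, Gbp4 and Gbp7, of the kind that interferon gamma induces. Igtp, a GTPase of defence against intracellular microbes, had 576 and 80.8 CPM in Sham and 16.1 and 48.8 CPM in IMQ. In the MHC class I list the count was 0 up and 4 down of 13 (median -1.35), with Tap2, the peptide transporter subunit, at 439 and 153 CPM in Sham and 71.2 and 85.6 CPM in IMQ. For Igtp and Tap2, Sham replicate 1 was the higher Sham library.

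MHC class II genes gave 0 up and 4 down of 6 (median -5.82), but they rest on single libraries. Cd74, the invariant chain, stood at 1638 and 44.2 CPM in Sham, 4.60 and 3.25 CPM in IMQ and 8.16 and 848 CPM in IMQ+SHP099. Its edgeR adjusted p for IMQ against Sham was 0.20, and the Sham and IMQ+SHP099 groups each held a high and a low library.

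The artery-like cells were also compared alone, at 8 to 19 cells a library. There 16 of 1980 genes were called between IMQ and Sham (0.808%), 6 higher and 10 lower, a selection of cells made after the data were seen. Called lower were the GTPase genes Igtp, Irgm1, Iigp1, Gbp3 and Gbp5, the class II genes H2-Aa and H2-Eb1, the complement gene C4b and Gm26917, beside Cytl1, which defines the cluster. Igtp had 754 and 324 CPM in the Sham cells of cluster 1, 19.4 and 43.7 CPM in IMQ, and 152 and 153 CPM in IMQ+SHP099 (log2 -3.96, edgeR adjusted p = 0.0168). Iigp1 had 1077 and 1188 CPM in the Sham cells, 107 and 59.6 CPM in IMQ, and 43.5 and 506 CPM in IMQ+SHP099. H2-Aa, at 0 UMIs in IMQ, was at least 52.6-fold higher in Sham against a floor of 3 UMIs over the group. Called higher beside Tmem252 and Ctla2a were Fabp4, Tuba1a, Ctsd and Igfbp7. Fabp4, the fatty acid binding protein, went from 789 and 694 CPM in Sham to 4098 and 2030 CPM in IMQ (edgeR adjusted p = 0.0497). Over all members its order was unlike this, at 1261 and 16490 CPM in Sham and 2389 and 2623 CPM in IMQ, with the capillary-like cells of Sham replicate 2 included.

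Cell cycle genes had small p-values in 1 direction. Of 16 tested, none was called and 7 had an unadjusted p under 0.05, all upward, with a median log2 difference of 1.07. Birc5, the mitotic protein survivin, had 41.1 and 14.3 CPM in Sham, 121 and 125 CPM in IMQ and 171 and 45.7 CPM in IMQ+SHP099 (IMQ against Sham, log2 2.80 ± 0.69, edgeR adjusted p = 0.15). Mki67, a marker of all cycling phases, had 48.0 and 35.2 CPM in Sham and 78.1 and 53.1 CPM in IMQ. Cluster 9, with Birc5 among its leading genes, held 43 of its 57 cells in the IMQ libraries.

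Over all members, no gene of the glycolysis, fatty acid or angiogenic sprouting lists was called. In the glycolysis and hypoxia list, 6 of 16 genes had an unadjusted p under 0.05, all upward (median 0.74), among them Gapdh at 912 and 758 CPM in Sham against 1900.3 and 1741 CPM in IMQ. Ldha, lactate dehydrogenase A, had 226 and 362 CPM in Sham and 659 and 666 CPM in IMQ. In the angiogenic sprouting list the count was 5 up and 2 down of 21 (median 0.61). Igfbp3, a growth factor binding protein, was nearest the threshold there, with 151 and 157 CPM in Sham, 966 and 566 CPM in IMQ and 269 and 129 CPM in IMQ+SHP099 (edgeR adjusted p = 0.089). Nrp1, a co-receptor of VEGF, had 123 and 849 CPM in Sham and 173 and 103 CPM in IMQ. In the NF-kB feedback list 3 of 14 genes had an unadjusted p under 0.05 upward and none downward (median 0.43), with Ier3 at 432 and 644 CPM in Sham and 1984 and 997 CPM in IMQ.

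Other lists gave smaller counts. Notch, flow response and arterial genes had no member with an unadjusted p under 0.05 of 11, 11 and 16 tested. The junction list had 2 of 14 (Tjp1 and Afdn, both downward) and the BMP and TGF-beta list 1 of 15. Coagulation genes gave 3 of 10 upward, among them Thbs1 at 13.7 and 45.2 CPM in Sham and 133 and 137 CPM in IMQ. Fatty acid handling genes gave 3 of 10 downward (median -1.19), where Sham replicate 2 held the capillary-like cells. Cd36, the fatty acid transporter, had 41.1 CPM in Sham replicate 1 and 3218 CPM in Sham replicate 2. Among the lists of other cell types, the calls were 4 of 10 keratinocyte genes and 2 of 2 leukocyte genes.

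**Figure D3:**
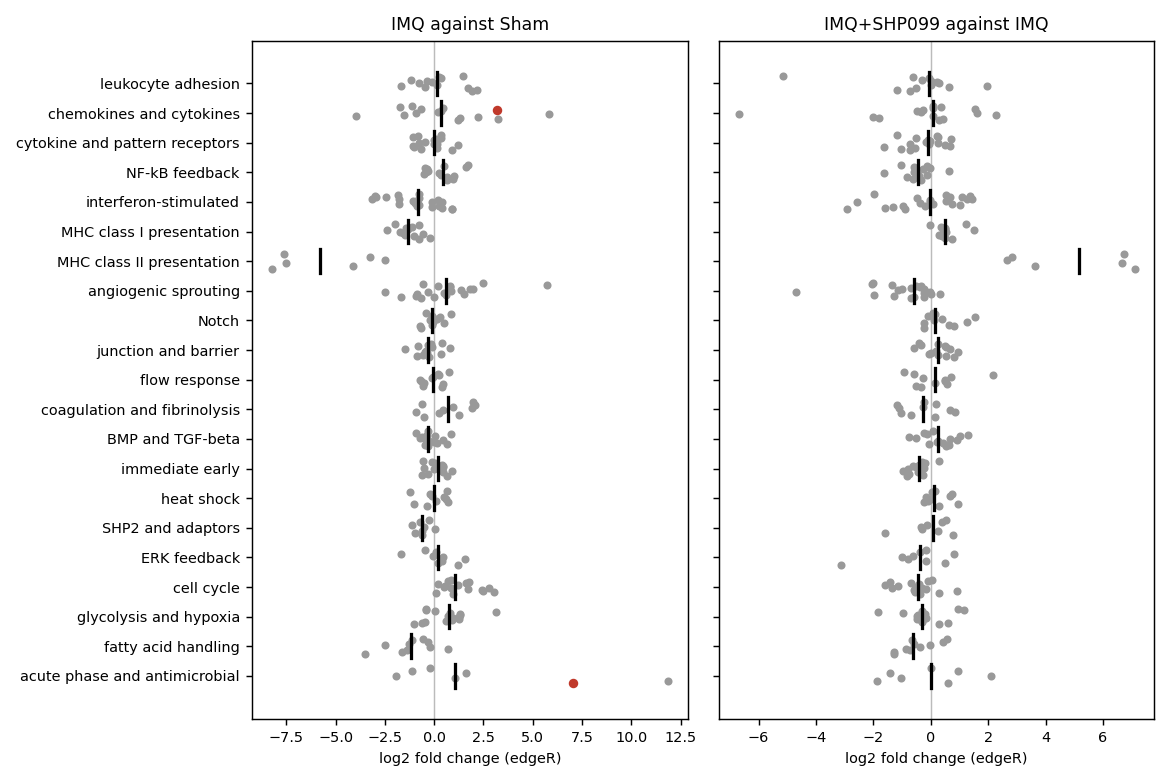
Log2 fold change of each tested gene (horizontal axis) in 21 gene lists (rows), for IMQ against Sham and for IMQ+SHP099 against IMQ. Grey points are genes, red points passed an adjusted p of 0.05, and black lines are medians; the medians of the interferon-stimulated and MHC lists lie left of 0 and that of cell cycle genes right of 0 in the comparison of IMQ with Sham.

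The 9 SHP2 and adaptor genes, 8 of them tested, summed to 106 to 397 CPM over the libraries, against 208 to 311 CPM in fibroblasts. Ptpn11, which encodes SHP2 (chr5:121130533-121191397, minus strand), had 27.4 and 86.6 CPM in Sham, 32.2 and 44.4 CPM in IMQ and 24.5 and 95.7 CPM in IMQ+SHP099, with overlap between all groups. SHP099 acts on the protein, and the transcript is no check of the labels. Tlr7 had no UMI in any member, which allows up to 1.33 CPM in Sham, 1.67 CPM in IMQ and 8.26 CPM in IMQ+SHP099. Of 8 SHP2 and adaptor genes 1 had an unadjusted p under 0.05 between IMQ and Sham, Sos2, at 41.1 and 55.2 CPM in Sham and 18.4 and 22.7 CPM in IMQ.

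The second comparison asked what SHP099 added to imiquimod. No gene of 7434 passed the adjusted threshold in edgeR between IMQ+SHP099 and IMQ (0%), and 280 (3.77%) had an unadjusted p under 0.05, 108 higher (1.45%) and 172 lower (2.31%). DESeq2 called 2 genes, Ifit1 and Ackr1, both lower. IMQ+SHP099 rests on 14 and 34 cells. The genes below had the smallest unadjusted p among those whose libraries did not overlap.

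Several of the lower genes are known interferon targets. Ifit1, which binds viral RNA, had 158 and 227 CPM in Sham, 285 and 372 CPM in IMQ, and 16.3 and 62.4 CPM in IMQ+SHP099 (log2 -2.92 ± 0.52, edgeR adjusted p = 0.99). Rsad2, the antiviral enzyme viperin, had 130 and 252 CPM in Sham, 183 and 293 CPM in IMQ, and 32.6 and 45.7 CPM in IMQ+SHP099. Oasl1, an antiviral protein related to oligoadenylate synthases, had 0 and 22.4 CPM in Sham and 48.2 and 79.1 CPM in IMQ, and no UMI in IMQ+SHP099. Against a floor of 3 UMIs it was at least 7.76-fold lower than in IMQ. Both IMQ+SHP099 libraries lay below all 4 others for Ifit1 and Rsad2. As a list, though, 3 of 22 interferon-stimulated genes had an unadjusted p under 0.05 downward and none upward, and the median was -0.03.

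The stretches before the start sites of Ifit1 and Rsad2 are shown because, of the 3 interferon targets above, these hold the core of the interferon response element. The 250 bases before each start come from RefSeq (GRCm38.p6), 5′ to 3′ on the strand of the gene, at chr19:34640639-34640888 (plus) and chr12:26456453-26456702 (minus). Capitals mark the core of the interferon response element (GAAA, any 2 bases, then GAAA), searched on both strands, and the kappa B consensus was searched likewise. It lay at -104 to -95 and at -85 to -76 from the start of Ifit1 and at -120 to -111 from that of Rsad2, each time on the opposite strand and so written as its reverse complement. The window before Oasl1, the third of these genes, held no such core and had 2 overlapping kappa B matches.
Ifit1: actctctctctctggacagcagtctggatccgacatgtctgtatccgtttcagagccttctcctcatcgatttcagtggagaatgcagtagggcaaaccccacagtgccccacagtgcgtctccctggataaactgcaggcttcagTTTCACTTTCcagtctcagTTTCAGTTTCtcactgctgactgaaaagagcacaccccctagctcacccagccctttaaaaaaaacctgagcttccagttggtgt
Rsad2: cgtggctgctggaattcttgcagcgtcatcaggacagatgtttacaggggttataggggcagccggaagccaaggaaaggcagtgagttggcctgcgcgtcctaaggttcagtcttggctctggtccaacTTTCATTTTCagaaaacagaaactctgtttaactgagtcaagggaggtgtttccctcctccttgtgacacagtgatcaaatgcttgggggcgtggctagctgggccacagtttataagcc
Over all 32851 promoters of the table, 2.98% held this core, and 7 of the 108 named genes with a promoter did (6.48%). The kappa B consensus was held by 7.25% of all promoters and by 20 of these 108 (18.5%). The named genes include by rule members of the NF-kB feedback, chemokine and interferon-stimulated lists. These shares therefore do not compare like sets, and nothing is drawn from them. For comparison the same window before Tmem252 (chr19:24673758-24674007, plus strand), which rose under imiquimod, held neither motif.
Tmem252: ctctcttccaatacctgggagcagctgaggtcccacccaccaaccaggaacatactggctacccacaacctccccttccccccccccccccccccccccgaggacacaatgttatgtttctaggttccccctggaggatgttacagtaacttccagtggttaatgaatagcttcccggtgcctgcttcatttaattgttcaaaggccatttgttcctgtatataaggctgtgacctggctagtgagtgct
Among other genes called higher under imiquimod, the window before Lcn2 held neither motif, that before Ada held 1 kappa B match at -137 to -128, and Csf3 had no row in the table. These matches describe letters and not binding.

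The other lower genes were of several kinds. Ackr1 (chr1:173331886-173333750, minus strand) had 20.6 and 189 CPM in Sham, 317 and 258 CPM in IMQ, and 0 and 12.5 CPM in IMQ+SHP099 (log2 -5.16 ± 1.02, edgeR adjusted p = 0.99). It marks the vein-like cluster, which held 0 and 4 cells in IMQ+SHP099 and 13 and 12 in IMQ. Ptgs1, the cyclooxygenase COX-1, had 48.0 and 82.3 CPM in Sham, 56.3 and 60.7 CPM in IMQ, and 0 and 4.16 CPM in IMQ+SHP099. Mest, an imprinted gene, had 0 and 17.6 CPM in Sham, 214 and 120 CPM in IMQ, and 16.3 and 20.8 CPM in IMQ+SHP099. For Mest the IMQ+SHP099 levels were close to Sham, whereas for Ptgs1 they were below it. Mest was also a leading gene of cluster 9, at 267 CPM against 19.0 CPM in the other members. That cluster held 26 and 17 cells in IMQ, 5 and 6 in IMQ+SHP099, and 0 and 3 in Sham. The part of this makeup in the Mest levels was not tested.

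Of the higher genes, Gpx3, a secreted glutathione peroxidase, had 17.2 and 13.0 CPM in IMQ and 139 and 49.9 CPM in IMQ+SHP099, after 6.85 and 12.4 CPM in Sham. Ifi27l2a, an interferon-induced mitochondrial protein, went the other way from Ifit1, with 51.7 and 36.8 CPM in IMQ and 310 and 179 CPM in IMQ+SHP099, against 206 and 90.8 CPM in Sham. Meg3, an imprinted long RNA, had 10.3 and 26.004 CPM in IMQ and 81.6 and 91.5 CPM in IMQ+SHP099.

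By list, the IMQ+SHP099 levels were both under the lower IMQ level for 7 of 11 venous genes (median log2 difference -0.71) and 5 of 9 capillary genes (median -1.18). The same held for 10 of 21 angiogenic sprouting genes (median -0.60) and 6 of 14 NF-kB feedback genes (median -0.44), where 20.5% of all genes lay so. Above the higher IMQ level lay 2 venous genes and 1 NF-kB feedback gene, and no capillary or sprouting gene. In the other direction, both were over the higher IMQ level for 5 of 13 MHC class I genes (median 0.48) and none below, where 16% of all genes lay above. Arterial genes had 4 of 16 above and none below (median 0.77). Immediate early genes had 6 of 14 below and none above (median -0.42), and fatty acid handling genes 5 of 10 below and 2 above. The vein-like cluster held 13 and 12 cells in IMQ and 0 and 4 in IMQ+SHP099. Its part in the venous count was not tested. Of 6 MHC class II genes, 4 had an unadjusted p under 0.05 upward and none downward (median 5.15), but only 1 had both IMQ+SHP099 libraries above, and Cd74 was high in just the second of them. Of the 9 ERK feedback genes tested, 2 lay below and none above, with a median of -0.36. Dusp5, a phosphatase of nuclear ERK, had 60.9 and 34.7 CPM in IMQ and 0 and 8.32 CPM in IMQ+SHP099 at an unadjusted p of 0.0045. Dusp6, its cytoplasmic relative, had 56.3 and 60.7 CPM in IMQ and 57.1 and 104 CPM in IMQ+SHP099. Between IMQ+SHP099 and Sham no gene passed in edgeR, 689 (9.27%) had an unadjusted p under 0.05, and DESeq2 called 20.

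The members were next set against the lymphatic endothelial cells of the same libraries (526 cells), chosen by the same rule but with at least 2 of the 3 lymphatic genes detected. With library as a block, 2160 of 7140 genes were called (30.3%), 1102 higher (15.4%) and 1058 lower (14.8%) in blood endothelial cells. Arterial genes were mostly higher, 11 of 15 tested, against 1 lower. Gja5 had 58.0 to 628 CPM in the 6 blood sums and no UMI in any lymphatic sum. Notch4, the endothelial Notch receptor, had 77.0 to 213 CPM against 0 to 3.85 CPM (log2 6.05 ± 0.36, edgeR adjusted p = 1.8e-07), and Sox17 had 188 to 329 CPM against 0 to 11.3 CPM.

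Angiogenic sprouting genes were mixed, with 9 of 18 higher and 5 lower in blood endothelial cells. Flt1, a VEGF receptor, had 336 to 1489 CPM in blood and 0 to 8.49 CPM in lymphatic endothelial cells (log2 8.53 ± 0.33, edgeR adjusted p = 1.1e-08), and Nrp1 103 to 849 CPM against 0 to 2.89 CPM. Nrp2, the neuropilin of lymphatic vessels, went the other way, with 37.4 to 333 CPM in blood and 286 to 472 CPM in lymphatic cells (log2 -1.75 ± 0.27, edgeR adjusted p = 0.000401). Kitl, the ligand of the receptor Kit, had 130.5 to 580 CPM against 0 to 4.24 CPM (log2 6.36 ± 0.26, edgeR adjusted p = 1.5e-08). Leukocyte adhesion genes were higher in blood for 7 of 10 and lower for 2. Cell cycle genes were higher for 9 of 10 and lower for none, with Mki67 at 35.2 to 78.1 CPM against 0 to 25.5 CPM. The highest lymphatic value, 25.5 CPM, was that of Sham replicate 2, and 4 of the 6 lymphatic sums had none.

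Some endothelial genes were higher in the lymphatic cells. Cldn5, a tight junction protein, had 481 to 1863 CPM in blood and 2047 to 2964 CPM in lymphatic cells (log2 -1.43 ± 0.28, edgeR adjusted p = 0.0019). Lcn2 had 611 and 686 CPM in the lymphatic cells of Sham, where the blood cells had 0 and 0.951 CPM. Ackr2, a scavenger of inflammatory chemokines, had 106 to 263 CPM in lymphatic cells and no UMI in blood. Of the list genes higher in blood, 25 of 93 with a promoter in the table (26.9%) held the kappa B consensus, and 7 of 42 of those lower did (16.7%). The share over all promoters was 7.25%. Both sets were drawn from lists that include NF-kB feedback, adhesion and chemokine genes, and the share over all list genes is not given.

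Last, the effect of imiquimod, both imiquimod groups against Sham, was compared with that in fibroblasts of the same libraries by an interaction term. The effect differed for 324 of 12783 genes (2.53%), 183 with the higher log2 change in blood endothelial cells (1.43%) and 141 with the lower (1.1%). Without Sham replicate 2 the count was 99, and without Sham replicate 1 it was 955. Icam1 was among the genes with the higher change in blood endothelial cells. It had 220 and 331 CPM in Sham fibroblasts and 159 to 281 CPM in the 4 imiquimod libraries, beside the levels given above for all members, which cluster 1 alone did not follow (log2 difference of the effects 1.61 ± 0.34, edgeR adjusted p = 0.019). Plaur, the urokinase receptor, had 96.0 and 44.2 CPM in Sham and 137 to 267 CPM under imiquimod in blood endothelial cells, and 22.9 and 40.2 CPM in Sham and 29.8 to 44.2 CPM under imiquimod in fibroblasts (1.68 ± 0.43, edgeR adjusted p = 0.045).

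Cxcl12 differed in the other direction. It was lower in the 4 imiquimod libraries of blood endothelial cells, while fibroblasts had 305 and 370 CPM in Sham and 1471 to 1929 CPM under imiquimod (difference -5.92 ± 0.70, edgeR adjusted p = 0.00022). Without Sham replicate 2 the difference was -4.28, at an adjusted p of 1.33e-05. Lrg1, an angiogenic glycoprotein also called an acute phase protein, had 329 and 820 CPM in Sham and 359 to 1255 CPM under imiquimod in blood endothelial cells. In fibroblasts it had 0 and 0.396 CPM in Sham and 6.75 to 19.3 CPM under imiquimod, so the ratio rests on very low fibroblast levels (difference -4.99 ± 0.52, edgeR adjusted p = 7.2e-05).

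Sox18, a transcription factor of endothelium, was steady in the members, between 499 and 628 CPM in all 6 libraries. The called difference, 4.77 ± 0.53 (edgeR adjusted p = 0.00012), lay in fibroblasts, which held 21.7 and 138 CPM in Sham and 1.28 to 2.85 CPM under imiquimod. Cell cycle genes had 11 of 16 called with the higher effect in blood endothelial cells. Birc5 had 12.3 and 56.7 CPM in Sham fibroblasts and 5.75 to 9.01 CPM under imiquimod (difference 5.12 ± 0.65, edgeR adjusted p = 0.00031). Ccnb2, cyclin B2, had 4.00 and 26.02 CPM in Sham fibroblasts and 1.79 to 5.50 CPM under imiquimod (5.11 ± 0.95, edgeR adjusted p = 0.0072). The count was 0 of 16 without Sham replicate 2, whose fibroblasts carried the most cycling UMIs, and 15 without Sham replicate 1.

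**Figure D4:**
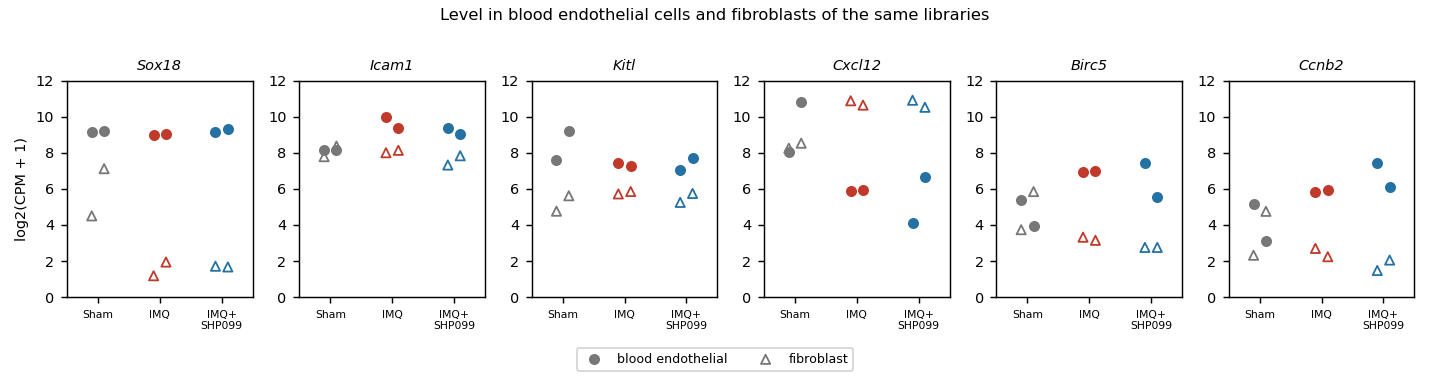
Level of 6 genes as log2(CPM + 1) in the summed blood endothelial cells (filled circles) and fibroblasts (open triangles) of each library, by group. Cxcl12 is lower in the circles and higher in the triangles under imiquimod, Sox18 is level in the circles and lower in the triangles under imiquimod, and Icam1 is higher in the circles under imiquimod.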

How the data were processed

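Single-cell 3′ libraries (10x Genomics) of 6 mouse skin samples were analysed. What the authors deposited are unnormalized counts of UMIs by gene and cell barcode, made with Cell Ranger against GRCm38 (mm10). Counts of the member cells were summed per library and tested with edgeR 4.0.16 (quasi-likelihood F test, TMM, filterByExpr, all 6 libraries in 1 fit, n = 2 a group, R 4.3.3). Fold changes are log2. Genes that the rule used were left out of all calls. The comparison with lymphatic cells and the interaction with fibroblasts (Col1a2 plus Col3a1 at least 50 UMIs per 10000, no Pecam1, Cdh5 or Ptprc, Krt5 plus Krt14 under 10) had library as a block. Cells were not treated as replicates. Members and gene lists were chosen with earlier results of these data known, and list genes given as examples were in part picked after their values were seen.

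Named genes passed an adjusted p of 0.05, had at least 20 CPM in the higher group and did not overlap between groups. They were on no marker list of other cells. The 12 largest changes each way were taken, or the 10 smallest p where fewer than 5 passed. To these were added called list members, the 2 most abundant members of each of 32 lists, and fixed names. Overlap was judged on TMM-scaled CPM, and printed levels are plain CPM. TMM centred the genes at a median log2 of -0.018 for IMQ against Sham, and library size alone at -0.209.

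Clusters came from scanpy 1.11.5 (2000 variable genes, 15 components, 15 neighbours, resolution 0.6, no integration). A marker was raised at a log2 ratio over 1 in at least 10% of cells. Scrublet marked under 0.5% of cells in 3 libraries and so did not work there, and 4 members were marked; none was removed in the main analysis. Fits were tested on simulated data. Same-numbered replicates were checked for pairing (correlations -0.161, 0.035 and 0.059) and were not paired. DESeq2 1.42.0, other filters, thinned cells, single clusters and each library left out were the alternatives. Exact (Clopper-Pearson) 95% intervals and floors of 3 UMIs cover counting error only. Coordinates are from GENCODE vM21.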

Additional observations from a re-analysis of the deposited data

Results flagged for a closer look

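The effect of imiquimod differed between blood endothelial cells and fibroblasts by a test of the difference itself for 324 genes. Among the genes named by rule, the difference (blood endothelial minus fibroblast, log2) was 5.12 for Birc5, 5.11 for Ccnb2, 4.77 for Sox18, -5.92 for Cxcl12 and -4.99 for Lrg1. Without Sham replicate 2, Birc5 stood at 2.46 (edgeR adjusted p = 0.0655) and Ccnb2 at 1.51 (adjusted p = 0.693), while Sox18 stood at 3.57 (adjusted p = 5.7e-06), Cxcl12 at -4.28 (adjusted p = 1.33e-05) and Lrg1 at -8.52 (adjusted p = 0.00386). Without clusters 5, 7 and 10 all 5 kept their sign and stayed under an adjusted p of 0.05.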

How the results depend on the processing

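Counts of called genes moved widely. For IMQ against Sham (20 called) the count was 61 with DESeq2, 438 with no filter on low counts, 97 without clusters 4 and 8, and 0 in each of 4 settings: only the groups compared (1503 genes at an unadjusted p under 0.05), cells thinned to 3000 UMIs (249), Scrublet doublets left out (1057) and no clusters 5, 7 and 10 (1057). Leaving out each library in turn gave 0 to 369 (369 without Sham replicate 1, 57 without Sham replicate 2, 4 without IMQ replicate 1, 0 without IMQ replicate 2 with 263 unadjusted, 5 without IMQ+SHP099 replicate 1 and 10 without IMQ+SHP099 replicate 2). For IMQ+SHP099 against IMQ (0 called) the count was 2 with DESeq2 and 54 with no filter, and 0 to 1 on leaving out a library. For IMQ+SHP099 against Sham (0 called) it was 20 with DESeq2, 209 with no filter, 2 with library size alone, 2 at under 5% mitochondrial UMIs, 13 without clusters 4 and 8, and 0 to 177 on leaving out a library, the highest without Sham replicate 1. For both imiquimod groups against Sham (18 called) it was 60 with DESeq2, 454 with no filter, 0 for thinned cells, 2 without doublets, 0 without clusters 5, 7 and 10, 10 in cluster 1 only, 86 without clusters 4 and 8, and 0 to 454 on leaving out a library (454 without Sham replicate 1, 31 without Sham replicate 2, 11 without IMQ replicate 2, 0 without IMQ+SHP099 replicate 1 and 5 without IMQ+SHP099 replicate 2). The lymphatic comparison (2160) ranged from 1352 to 2237 (lowest without either IMQ library) and the fibroblast comparison (324) from 99 to 955 on leaving out a library, (955 without Sham replicate 1, 99 without Sham replicate 2, 206 without IMQ replicate 1 and 191 without IMQ+SHP099 replicate 1), and the latter was 665 with no filter. Clusters 4 and 8 and the other cluster settings were chosen after seeing the data. The causes were not tested.

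With the replicate block the count was 36 for IMQ against Sham (13 shared with the 20), 9 for IMQ+SHP099 against Sham and 33 for both groups against Sham, although the numbers do not pair the samples. The crossed pairing gave 339 for IMQ against Sham.

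Share differences here are of all kept cells. Without Sham replicate 2 the difference against Sham turned from negative to 0.343 percentage points for IMQ, 0.0313 for IMQ+SHP099 and 0.187 for both groups. The ranges on leaving out a library began at -3.05, -3.36 and -3.20, without Sham replicate 1. The interaction of Chchd10 with fibroblasts ranged from -6.49 to 3.53 (edgeR adjusted p = 0.992), the latter without Sham replicate 2. Thinned cells turned Nts to 0.0874 for IMQ+SHP099 against IMQ. With 14 to 34 members in 3 of the libraries, genes under about 8.16 CPM rest on single UMIs there.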
